A study of Homo sapiens with 9 samples.

Results

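The 10 genes described here encode the sensing and exchange machinery at the start of the integrated stress response: the 4 kinases of translation initiation factor eIF2 (EIF2AK1 to EIF2AK4), the eIF2 subunit they phosphorylate (EIF2S1, eIF2 alpha), and the 5 subunits of eIF2B (EIF2B1 to EIF2B5). They were found by gene symbol, and all 10 were present among the 56541 genes of the count table. The RNA came from MOLM-13, an established human acute myeloid leukaemia line. All cells, controls included, had doxycycline for 4 days, at 200 ng/uL as the labels write it, a unit that could not be checked here. There were 9 libraries in 3 groups of 3: total RNA of cells carrying a control hairpin (shCONTROL), total RNA of cells carrying a BCLAF1 hairpin (shBCLAF1), and RNA recovered by immunoprecipitation of BCLAF1 from shCONTROL cells (RIP). BCLAF1 is a nuclear protein with roles in transcription and RNA processing. The labels give neither the hairpin sequences and their promoter, nor whether the lines were clones or the replicates separate cultures. The p-values below therefore measure the spread between these libraries, which may be technical. No mock precipitation is named, so RIP values are relative to total shCONTROL RNA and carry no measure of unspecific recovery.

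In its GTP-bound form eIF2 brings the initiator tRNA to the ribosome, and eIF2B recharges it with GTP after each round of initiation. Under stress the kinases phosphorylate eIF2 alpha, which then holds eIF2B in an inactive complex, so that general translation falls while mRNAs with suitable upstream reading frames, that of the transcription factor ATF4 among them, are translated more. Each kinase reads another signal: EIF2AK1 (HRI) haem shortage and mitochondrial stress, EIF2AK2 (PKR) double-stranded RNA, EIF2AK3 (PERK) unfolded protein in the endoplasmic reticulum, and EIF2AK4 (GCN2) uncharged tRNA. The control acts largely through phosphorylation, which RNA counts do not measure.

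Library totals ran from 25819144 to 36635268 estimated counts. The floor was set at 3 counts, which is 0.0819 to 0.116 CPM (counts relative to library size). Levels are CPM after TMM scaling over the 9 libraries, and they are compared between groups of 1 gene only, since transcript lengths were not used. BCLAF1 fell from 322 ± 8.28 (SD, n = 3) to 114 ± 12.9 CPM (SD, n = 3), or 35.3% of control, and stood at 1070 CPM in the RIP, so the targeted gene was low in the libraries labelled shBCLAF1. All 8 myeloid markers examined were present in shCONTROL (84.0 to 730 CPM). They moved with the groups: after knock-down LYZ (730 to 2650 CPM), SPI1 and CD33 rose, MEIS1 (84.0 to 46.1 CPM), HOXA9 and FLT3 fell, and 2 were not called by edgeR. In the RIP LYZ stood at 46.4 CPM. The part of these shifts in the members' results was not tested. Of the markers of other cell types, CD3E, MS4A1, HBB, PF4, EPCAM and COL1A1 were at 0 in every library, KRT8 was at 0 outside shBCLAF1 (0.962 CPM there), and PECAM1, which myeloid cells also express, stood at 187 CPM.

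A few library values stood apart and touch the members. EIF2AK2 had 2842 and 3411 estimated counts in shCONTROL 1 and 2 but 23 in shCONTROL 3, and 4464 and 4152 in shBCLAF1 1 and 2 but 30 in shBCLAF1 3. Among genes with at least 100 counts in the other 4 RNA-seq libraries, ST8SIA5, ZNF420 and EIF2AK2 were the ones under 10% of their usual count in both libraries numbered 3. A library under 10% of its group's median occurred in 0.763% of shCONTROL genes, 0.797% of shBCLAF1 genes and 0.925% of RIP genes with a median of at least 100 counts. EIF2B5 had 72.1 CPM in shBCLAF1 1 against 27.2 and 20.0 CPM in shBCLAF1 2 and 3. Results on both genes are given with and without these libraries, and the cause of the values was not tested.

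The promoter sequences of 9 members were matched in the RefSeq table (GRCh38.p14), and 3 are shown. The first is that of EIF2AK2, the member with the divergent libraries and the kinase known to be interferon-induced. The others are those of EIF2B2 and EIF2B3, the 2 members called lower after knock-down. Each run goes 5′ to 3′ on the gene's strand, from 250 bases before the RefSeq start to 10 bases after it. In EIF2AK2, at chr2:37156971-37157230 on the minus strand, capitals mark the interferon-response letters, GAAA, any 2 bases, then GAAA. In EIF2B2, at chr14:75002671-75002930 on the plus strand, and EIF2B3, at chr1:44986586-44986845 on the minus strand, capitals mark ATTGG, which is CCAAT read on the opposite strand.
EIF2AK2: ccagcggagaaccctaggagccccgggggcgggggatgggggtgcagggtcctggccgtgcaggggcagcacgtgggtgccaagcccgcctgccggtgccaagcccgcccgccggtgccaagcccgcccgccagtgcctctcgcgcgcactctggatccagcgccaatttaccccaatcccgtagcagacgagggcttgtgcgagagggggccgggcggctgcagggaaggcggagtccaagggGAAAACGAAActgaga
EIF2B2: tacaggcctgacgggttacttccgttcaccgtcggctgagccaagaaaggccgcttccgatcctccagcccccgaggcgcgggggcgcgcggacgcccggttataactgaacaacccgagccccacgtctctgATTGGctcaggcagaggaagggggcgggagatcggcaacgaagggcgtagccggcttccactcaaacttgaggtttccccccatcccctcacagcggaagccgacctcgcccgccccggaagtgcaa
EIF2B3: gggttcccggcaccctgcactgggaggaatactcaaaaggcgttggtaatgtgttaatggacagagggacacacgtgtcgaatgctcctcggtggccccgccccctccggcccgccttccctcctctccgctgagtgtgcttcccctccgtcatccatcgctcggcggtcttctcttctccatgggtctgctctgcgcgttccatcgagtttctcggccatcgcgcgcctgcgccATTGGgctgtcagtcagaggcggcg
Searched on both strands of 300-base windows (250 bases before to 50 after the start), the interferon-response letters were present in 3.57% of 35116 promoters and, among the matched members, only in EIF2AK2, from base -6 to base 4. The ATF4 and C/EBP letters TGATGNAAN were in 3.61% of promoters and in no matched member's window. CCAAT was in 34.6% of promoters and in 5 of the 9 matched members (EIF2AK2, EIF2AK3, EIF2B2, EIF2B3 and EIF2B4); it was searched after values had been seen. In EIF2B2 it lies from base -117 to base -113 and in EIF2B3 from base -15 to base -11, and no letters of the 3 motifs overlap one another in these windows.

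After BCLAF1 knock-down, RNA for the kinases, eIF2 alpha and most of eIF2B was not called different from control, while 2 eIF2B subunits fell. By edgeR's quasi-likelihood test with Benjamini-Hochberg adjustment over all genes tested, and a threshold of 0.05, none of the 10 members rose (also 0 at an unadjusted p under 0.05 and 0 by DESeq2), EIF2B2 and EIF2B3 fell, and 8 were not called. In these bulk libraries fewer cells with an RNA and less of it per cell cannot be told apart. Over the 16961 genes tested, 32.3% were called (15.5% higher, 16.9% lower), so 2 of 10 lower is near the background. The median log2 fold change was -0.00546 over the members and 0.0166 over all genes tested. Groups did not overlap for EIF2B2 and EIF2B3, and overlapped for the other 8 members, as the plot of levels by library shows.

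**Figure D1:**
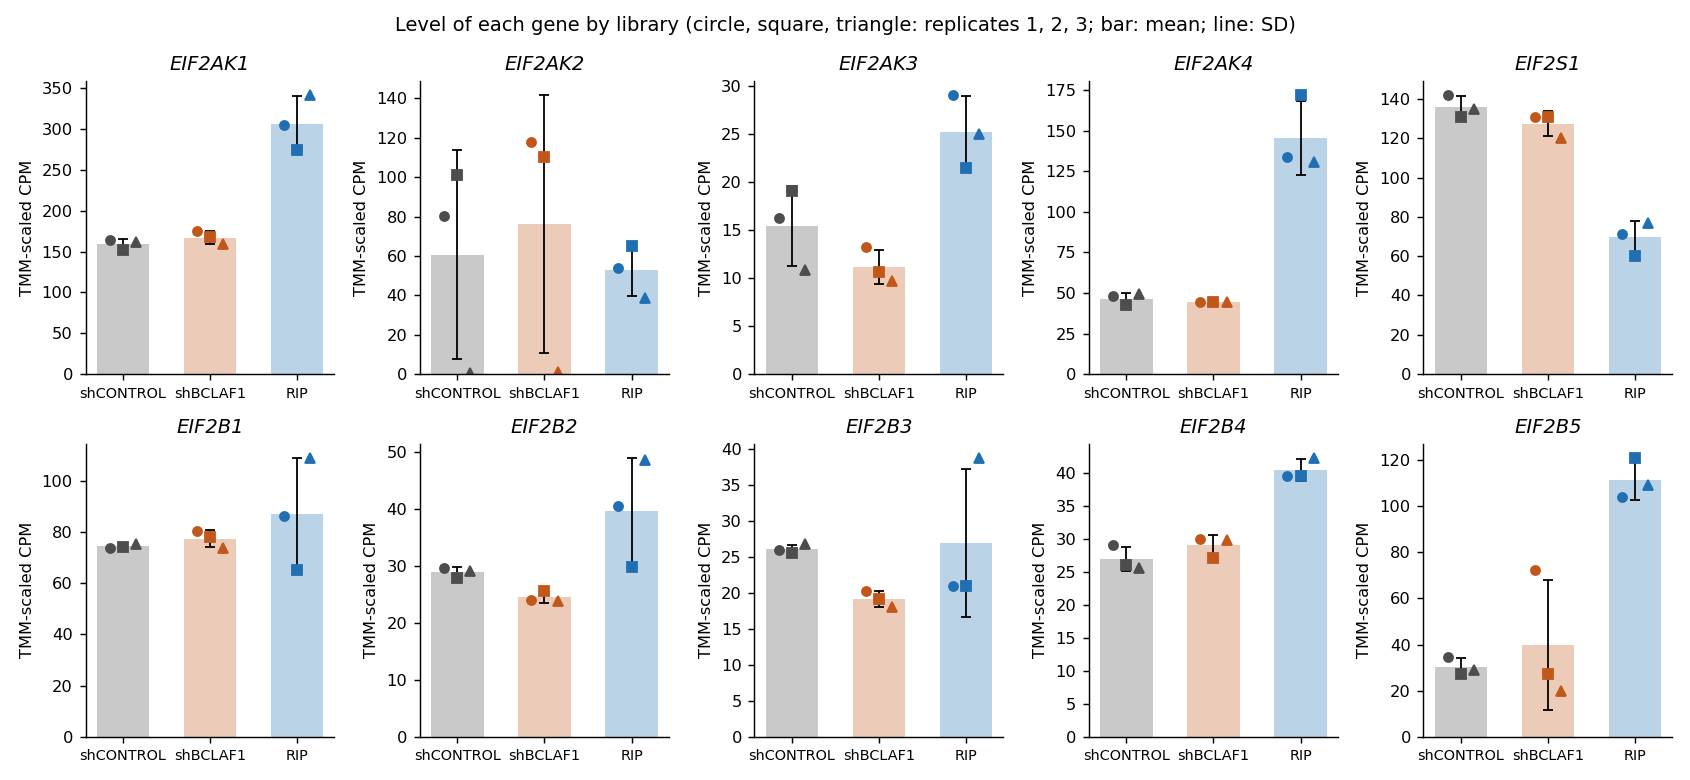
Each panel plots 1 gene's TMM-scaled CPM (vertical axis, from 0) in the shCONTROL, shBCLAF1 and RIP libraries; symbols are replicates, bars are means and lines are SD (n = 3). EIF2AK2 lies near 0 in shCONTROL 3 and shBCLAF1 3, and EIF2B5 reaches 72.1 CPM in shBCLAF1 1. EIF2AK1, EIF2AK3, EIF2AK4, EIF2B4 and EIF2B5, and by little EIF2B2, are higher in all 3 RIP libraries than in any RNA-seq library.

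In the BCLAF1 RIP the pattern was uneven across the machinery: EIF2B5, EIF2AK4, EIF2AK1, EIF2AK3 and EIF2B4 were higher than in shCONTROL RNA (5 of 10), EIF2S1 was lower (1 of 10), and EIF2AK2, EIF2B1, EIF2B2 and EIF2B3 were not called. Of 16727 genes tested by the same edgeR test, 49.2% were called, 24.6% higher and 24.7% lower. A fold of at least 2 besides the adjusted p was reached by EIF2B5 and EIF2AK4, 2 of 10, where 11.0% of all genes were enriched that far and 13.5% were depleted; no member was depleted that far, by edgeR with or without adjustment or by DESeq2. The median log2 difference of RIP from shCONTROL was 0.524 over the members and -0.0488 over all genes tested. Ranked by this difference, 3.26% of tested genes stood above EIF2B5 and 4.77% above EIF2AK4, and 79% stood above EIF2S1. Both contrasts use the same shCONTROL libraries, so values of the contrasts are given side by side and were not correlated.

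**Figure D2:**
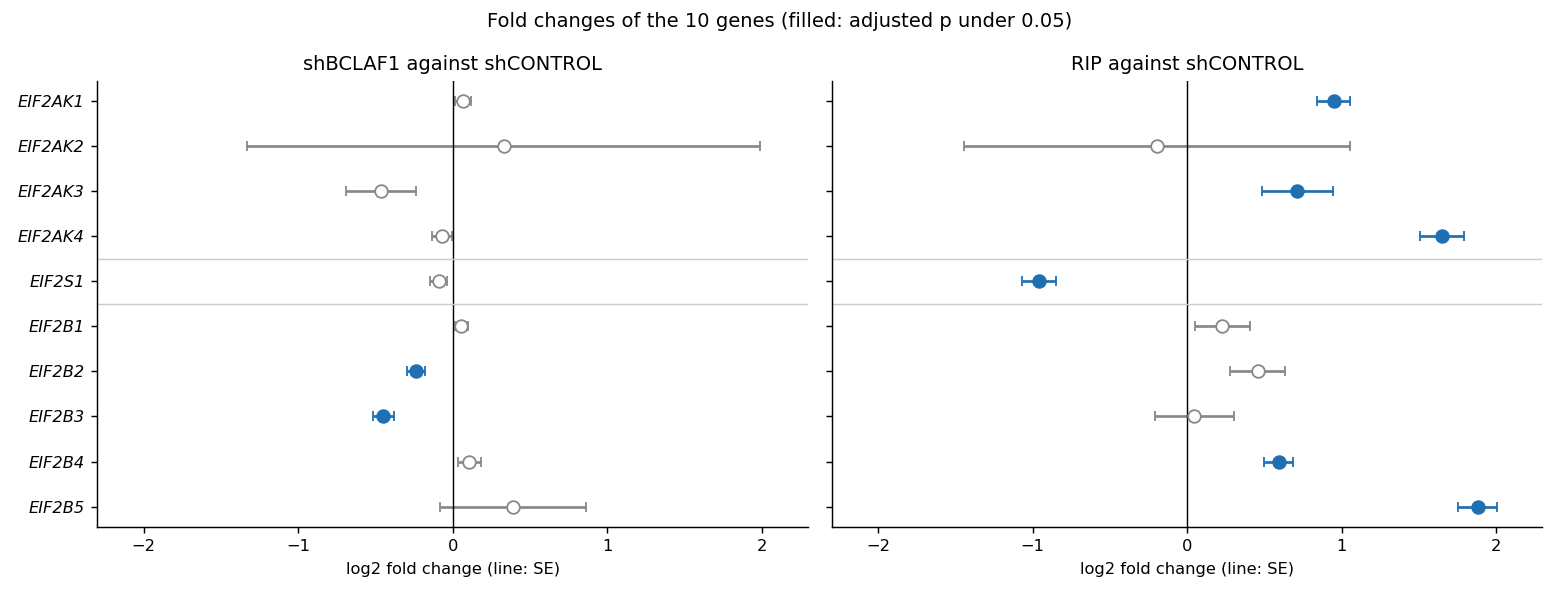
The log2 fold change (horizontal axis) of each of the 10 genes is shown for shBCLAF1 against shCONTROL on the left and RIP against shCONTROL on the right; lines are SE and filled points passed an adjusted p of 0.05. EIF2B2 and EIF2B3 are the filled points on the left, and on the right the values run from -0.96 for EIF2S1 to 1.88 for EIF2B5.

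EIF2AK1 (ENSG00000086232; chr 7, 6022247 to 6059175 in RefSeq GRCh38.p14) encodes HRI, the kinase of haem-regulated translation in red cell precursors that also relays mitochondrial stress. Its levels were 164, 152 and 162 CPM in shCONTROL, 175, 168 and 159 CPM in shBCLAF1, and 305, 274 and 342 CPM in the RIP. The RNA-seq groups overlapped and every RIP library was above them. After knock-down the log2 fold change was 0.07 (SE 0.0507, edgeR adjusted p = 0.366). RIP exceeded shCONTROL by 0.95 on the log2 scale (SE 0.107, edgeR adjusted p = 0.000977), or 193% of the shCONTROL level. It passed the minimum of log2 1 only without RIP 2 (1.02). The gene's span overlaps those of AIMP2 and ANKRD61, both lower in the RIP (log2 -1.40 and -0.90, edgeR adjusted p 0.000605 and 0.0439).

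EIF2AK2 (ENSG00000055332; chr 2, 37099210 to 37156980) encodes PKR, which double-stranded RNA activates and interferon induces. Levels were 80.5, 101 and 0.642 CPM in shCONTROL, 118, 110 and 0.819 CPM in shBCLAF1, and 54.0, 65.2 and 38.8 CPM in the RIP. With all libraries the RNA-seq groups overlapped through the libraries numbered 3, and the fit gave a log2 fold change of 0.33 with an SE of 1.66 (edgeR adjusted p = 0.905). Without both libraries numbered 3, a choice made after seeing the data, the shBCLAF1 mean was 114 CPM against 90.9 CPM, 126% of control, with log2 0.31 and an edgeR adjusted p of 0.156. The RIP difference was -0.19 (SE 1.25, edgeR adjusted p = 0.906) with all libraries and -0.78 (adjusted p = 0.0658, 58% of the level) without shCONTROL 3. With all libraries and the replicate block, the knock-down value was 0.34 (SE 0.109, edgeR adjusted p = 0.0962) and the RIP value 0.79 (adjusted p = 0.701). No call was made in any of these fits. Leaving the near-0 libraries out kept the knock-down value near its size and moved the RIP value. The promoter printed above places the interferon-response letters across the annotated start. GPATCH11, whose span meets that start over 35 bases, did not share the low values: it stood at 36.5, 36.1 and 36.2 CPM in shCONTROL and at 46.1, 42.9 and 41.1 CPM in shBCLAF1.

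EIF2AK3 (ENSG00000172071; chr 2, 88556741 to 88628145) encodes PERK, the endoplasmic reticulum kinase. Outside the near-0 EIF2AK2 libraries it had the lowest counts of the 4 kinases. Levels were 16.3, 19.1 and 10.9 CPM in shCONTROL, 13.2, 10.6 and 9.74 CPM in shBCLAF1, and 29.1, 21.5 and 25.0 CPM in the RIP. The shCONTROL 3 value lay within the shBCLAF1 range, and the RIP libraries were above all others. After knock-down the log2 fold change was -0.46 (SE 0.228, edgeR adjusted p = 0.179), and it was called only without shCONTROL 3 (-0.66, adjusted p = 0.0370). The RIP difference was 0.71 (SE 0.229, edgeR adjusted p = 0.0426). That call was lost without shCONTROL 1 (adjusted p = 0.0952), shCONTROL 3 (0.0743), RIP 1 (0.119), RIP 2 (0.0506) or RIP 3 (0.0833), at log2 differences of 0.51 to 0.81, and with total counts in place of TMM (0.60, adjusted p = 0.0947), so it lay near the threshold. EIF2AK3-AS1 overlaps the gene over 18870 bases on the annotation, and whether the counting used strand is not given in the sources used here.

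EIF2AK4 (ENSG00000128829; chr 15, 39934115 to 40035591) encodes GCN2, the amino acid sensor. Its RNA-seq levels were close to each other, at 48.0, 42.4 and 49.3 CPM in shCONTROL and 44.6, 44.3 and 44.3 CPM in shBCLAF1. The shBCLAF1 values lay inside the shCONTROL range, and the knock-down log2 fold change was -0.07 (SE 0.0657, edgeR adjusted p = 0.493). In the RIP it stood at 134, 172 and 131 CPM, far above every RNA-seq library. This was 313% of shCONTROL, with a log2 difference of 1.65 (SE 0.145, edgeR adjusted p = 0.000481), and it was called in all 15 alternative fits of the RIP contrast.

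EIF2S1 (ENSG00000134001; chr 14, 67360328 to 67386516) encodes eIF2 alpha, the substrate shared by the kinases. It was the member called lower in the RIP. Levels were 142, 131 and 135 CPM in shCONTROL, 131, 131 and 120 CPM in shBCLAF1, and 71.3, 60.2 and 77.0 CPM in the RIP. The RNA-seq groups met at 131 CPM and the RIP libraries were below both. The knock-down log2 fold change was -0.09 (SE 0.0532, edgeR adjusted p = 0.257). The RIP difference was -0.96 (SE 0.109, edgeR adjusted p = 0.00100), or 51.2% of shCONTROL. It passed a log2 of 1 in size without RIP 3 (-1.03) and with total counts in place of TMM (-1.07). EIF2S1 lies wholly within the span of GPHN, and the sources used here do not say how counts of overlapping genes were separated.

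EIF2B1 (ENSG00000111361; chr 12, 123620406 to 123633686) encodes the alpha subunit of eIF2B, which with the beta and delta subunits forms the regulatory core that senses phosphorylated eIF2. Levels were 73.8, 74.0 and 75.3 CPM in shCONTROL, 80.3, 77.9 and 73.7 CPM in shBCLAF1, and 86.2, 65.3 and 109 CPM in the RIP. All 3 groups overlapped. The knock-down log2 fold change was 0.06 (SE 0.0436, edgeR adjusted p = 0.383) and the RIP difference 0.23 (SE 0.178, edgeR adjusted p = 0.330). RIP 2 was the lowest of the 9 libraries for this gene, and without it the RIP difference was 0.39 with an adjusted p of 0.0367.

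EIF2B2 (ENSG00000119718; chr 14, 75002921 to 75012366) encodes the beta subunit. It stood at 29.7, 28.0 and 29.2 CPM in shCONTROL and at 24.1, 25.7 and 23.9 CPM in shBCLAF1. Every shBCLAF1 library was below every shCONTROL library, by a log2 fold change of -0.24 (SE 0.0584, edgeR adjusted p = 0.0238). The call was lost without shCONTROL 1 (adjusted p = 0.0985), shCONTROL 3 (0.0915), shBCLAF1 1 (0.0657) or both libraries numbered 3 (0.118), and when all 9 libraries shared 1 fit (0.383). The RIP values of 40.6, 29.9 and 48.6 CPM were all above shCONTROL, RIP 2 by little. Their difference was 0.46 (SE 0.177, edgeR adjusted p = 0.0763), and it was 0.62 with an adjusted p of 0.00709 without RIP 2.

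EIF2B3 (ENSG00000070785; chr 1, 44850522 to 44986595) encodes the gamma subunit, which pairs with the epsilon subunit in the catalytic part of the exchange factor. It was the member with the lower of the 2 called knock-down values. It stood at 25.9, 25.5 and 26.8 CPM in shCONTROL and at 20.2, 19.1 and 18.0 CPM in shBCLAF1, with a gap between the groups wider than either group's range. The mean fell from 26.1 ± 0.686 to 19.1 ± 1.09 CPM (SD, n = 3 each), a log2 fold change of -0.45 (SE 0.0658, edgeR adjusted p = 0.00367). The call held in 13 of 14 alternative fits and was lost when all 9 libraries shared 1 fit (adjusted p = 0.243). In the RIP the libraries stood at 21.0, 20.9 and 38.8 CPM, on either side of shCONTROL, with a difference of 0.05 (SE 0.255, edgeR adjusted p = 0.888). Without RIP 3 the difference turned to -0.30 with an adjusted p of 0.0325. Over the 9 libraries the log2 profiles most like that of EIF2B3, among 12470 genes with a symbol and at least 50 counts on average, were those of RPS10 (root mean square difference 0.0773), HADH (0.0807) and RPS27A (0.101).

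EIF2B4 (ENSG00000115211; chr 2, 27364352 to 27370338) encodes the delta subunit, another part of the regulatory core. Levels were 29.0, 26.1 and 25.6 CPM in shCONTROL, 30.0, 27.1 and 29.9 CPM in shBCLAF1, and 39.5, 39.5 and 42.3 CPM in the RIP. The RNA-seq groups overlapped and the RIP libraries were above them with little spread. The knock-down log2 fold change was 0.11 (SE 0.0757, edgeR adjusted p = 0.336). RIP exceeded shCONTROL by 0.59 on the log2 scale (SE 0.0917, edgeR adjusted p = 0.00297), or 150% of its level. GTF3C2-AS2 overlaps the gene over 3529 bases and was not called in the RIP (-0.39, edgeR adjusted p = 0.0798).

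EIF2B5 (ENSG00000145191; chr 3, 184135358 to 184145311) encodes epsilon, the catalytic subunit that exchanges GDP for GTP on eIF2. It stood at 34.4, 27.4 and 29.1 CPM in shCONTROL and at 72.1, 27.2 and 20.0 CPM in shBCLAF1. One shBCLAF1 library was above and 2 were below all control values, so the log2 fold change of 0.39 had an SE of 0.471 (edgeR adjusted p = 0.587). Without shBCLAF1 1 the direction turned, to -0.36 with an adjusted p of 0.191 and a mean of 23.6 CPM, 77.9% of control. In the RIP the libraries stood at 104, 121 and 109 CPM, above every RNA-seq library. The difference from shCONTROL was the largest of the 10 members at log2 1.88 (SE 0.125, edgeR adjusted p = 0.000273), 367% of the level, and it was called in all 15 alternative fits.

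Ratios taken within a library do not depend on the library scaling, and they are given for 4 members called in a contrast. Per 100 EIF2S1 counts, EIF2AK1 had 118 ± 2.7 counts in shCONTROL and 131 ± 2.86 in shBCLAF1, and the RIP ratio was 442 ± 13.8 (SD, n = 3 each). For EIF2AK4 the ratio was 34.3 ± 2.11, 34.9 ± 1.78 and 214 ± 62.4 (SD, n = 3 each). These RIP ratios also rise with the lower EIF2S1, which stood at 51.2% of shCONTROL. By level EIF2AK1 stood at 193% and EIF2AK4 at 313% of shCONTROL. The share of EIF2B5 in the summed eIF2B counts was 16.2% ± 1.42 in shCONTROL against 36.9% ± 6.29 for the RIP (SD, n = 3 each), without overlap, an exact permutation p of 0.1 being the smallest that 3 against 3 libraries allow. In shBCLAF1 this share was 31.8, 15.4 and 12.1%, with only the first library above control. For EIF2B3 the shares were 14.0% ± 0.489 (shCONTROL), 10.2% ± 1.12 (shBCLAF1) and 8.64% ± 2.19 (RIP), and neither other group overlapped shCONTROL (exact permutation p = 0.1 each, two-sided). A share also moves with the other subunits: in the RIP the EIF2B3 level itself was not called different, at 26.9 CPM against 26.1 CPM, beside EIF2B5 at 367%.

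**Figure D3:**
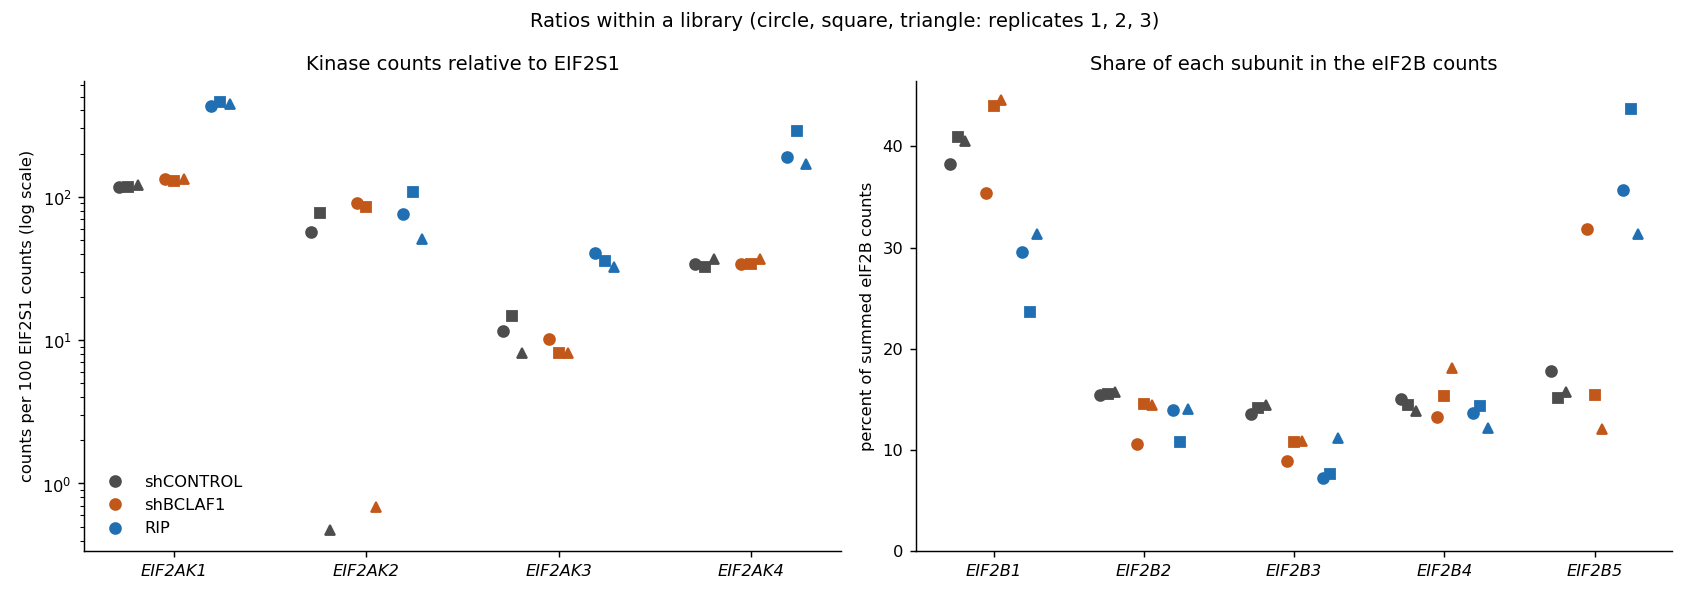
The left panel plots counts of each kinase per 100 EIF2S1 counts on a log axis and the right panel each subunit's percent of the summed eIF2B counts, 1 symbol per library (3 per group). In the RIP the EIF2AK1 ratio lies between 428 and 455 and the EIF2B5 share between 31.3 and 43.7%, above all shCONTROL libraries.

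Of 9 partners of the members in the eIF2 cycle, 6 fell, 1 rose and 2 were not called by edgeR after knock-down, where 16.9% of all genes fell, with a median log2 fold change of -0.31. When all 9 libraries shared 1 fit, 3 fell and 0 rose, EIF5 losing its call (adjusted p = 0.148). EIF2S3, the gamma subunit of eIF2 that binds GTP and tRNA, fell by 0.55 on the log2 scale (478 to 325 CPM, edgeR adjusted p = 0.00125). EIF2S2, the beta subunit, fell by 0.47 (117 to 84.4 CPM, adjusted p = 0.000620), and EIF5, the GTPase-activating partner of eIF2, rose by 0.34 (257 to 324 CPM, adjusted p = 0.00217). So the substrate subunit EIF2S1 was not called while both other eIF2 subunits fell; the difference between subunits was read through their ratio, 86.2 EIF2S2 counts per 100 EIF2S1 counts in shCONTROL against 66.3 in shBCLAF1 (exact permutation p = 0.1, two-sided). In the RIP 2 of the 9 rose and 5 fell, where 24.6% of all genes rose and 24.7% fell. EIF2S2 (log2 1.34) and EIF5 (0.98) were higher, and EIF2S3 (-1.11) and MCTS1 (-1.14), a translation re-initiation factor, lower. Per 100 EIF2S1 counts the RIP held 423 EIF2S2 counts against 86.2 in shCONTROL (exact permutation p = 0.1, two-sided). For EIF2S3 it held 323 ± 75.8 against 353 ± 23.8 (SD, n = 3 each), and these groups overlapped (exact permutation p = 0.5, two-sided). EIF2S1 itself stood at 51.2% of shCONTROL in the RIP, and a lower EIF2S1 raises both ratios. EIF2S2 and EIF2S3 have near-identical copies among the table's genes, and reads could have been split between them.

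Regulators of the kinases, 10 genes, gave 1 higher, 3 lower and 6 not called after knock-down (median log2 -0.15). Over all genes tested, 15.5% rose and 16.9% fell. DNAJC3, an inhibitor of PERK and PKR, rose from 147 to 266 CPM (log2 0.86, edgeR adjusted p = 0.000141). MAP3K20, the kinase that senses stalled ribosomes, fell by 0.47 on the log2 scale (edgeR adjusted p = 0.000680). DELE1, which carries the mitochondrial signal to EIF2AK1, fell by 0.16 (edgeR adjusted p = 0.0321), a call lost without shCONTROL 1, 2 or 3 or shBCLAF1 1 or 2 (adjusted p 0.0639 to 0.113). The lower count of the list was 1 without shCONTROL 3, shBCLAF1 1 or shBCLAF1 2. In the RIP 3 were higher and 4 lower: ADAR (log2 0.79), which edits double-stranded RNA, and IMPACT (0.58), which restrains GCN2, stood above shCONTROL, and PRKRA (-1.10), an activator of PKR, and DELE1 (-0.87) below it. Without shCONTROL 1 or shCONTROL 3 the lower count in the RIP was 2.

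The phosphatase that reverses the kinases' action was measured through 5 genes. After knock-down PPP1R15A, its stress-induced regulatory subunit GADD34, fell by 0.36 on the log2 scale (70.3 to 54.7 CPM, edgeR adjusted p = 0.0102) and the catalytic subunit gene PPP1CC fell by 0.26 (adjusted p = 0.0135); the other 3 were not called. Both calls were lost when all 9 libraries shared 1 fit (adjusted p = 0.308 and 0.134). Over all genes tested, 16.9% fell after knock-down, and 24.6% were higher and 24.7% lower in the RIP. In the RIP PPP1R15A stood at 176, 296 and 164 CPM, a log2 difference of 1.60 (edgeR adjusted p = 0.00314). PPP1CC (0.59) was also higher there, while PPP1R15B, the constitutive regulatory subunit, was lower (-0.45).

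Downstream of the members, the ATF4 branch had the largest median shift of the 6 pathway lists after knock-down. Of 22 tested genes 21 fell by edgeR's test, where 16.9% of all genes fell. None of the 22 had a positive log2 fold change, and DESeq2 called 22 lower and 0 higher. By edgeR 13 of the 22 fell at least 2-fold. The share of all genes that fell that far after knock-down was not computed, and the 16.9% holds for falls of any size. The median log2 fold change of the list was -1.06 against 0.0166 over all genes. The largest falls were those of CHAC1, a glutathione-degrading enzyme (log2 -3.77, 51.5 to 3.71 CPM, edgeR adjusted p = 0.000524), and ASNS, asparagine synthetase (-2.05, 147 to 35.6 CPM, adjusted p = 0.000257). ATF4 itself, named here after its values were seen, fell from 560 to 286 CPM (log2 -0.97, edgeR adjusted p = 0.000164). The 4 kinases ran from -0.46 to 0.33, with 0 calls by edgeR, 0 at an unadjusted p under 0.05 and 0 by DESeq2. In the RIP 5 of the 22 were higher, led by the transcription factors DDIT3 (1.51) and ATF3 (1.22), and 12 lower, led by PSAT1, an enzyme of serine synthesis (-1.68), and SLC7A11, the cystine transporter (-1.53). With both RNA-seq groups as the reference, 10 were higher and 7 lower. With shCONTROL as the reference, 24.6% of all genes tested were higher and 24.7% lower. The list was known from earlier results of these data to fall, so its count is no independent evidence of direction.

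**Figure D4:**
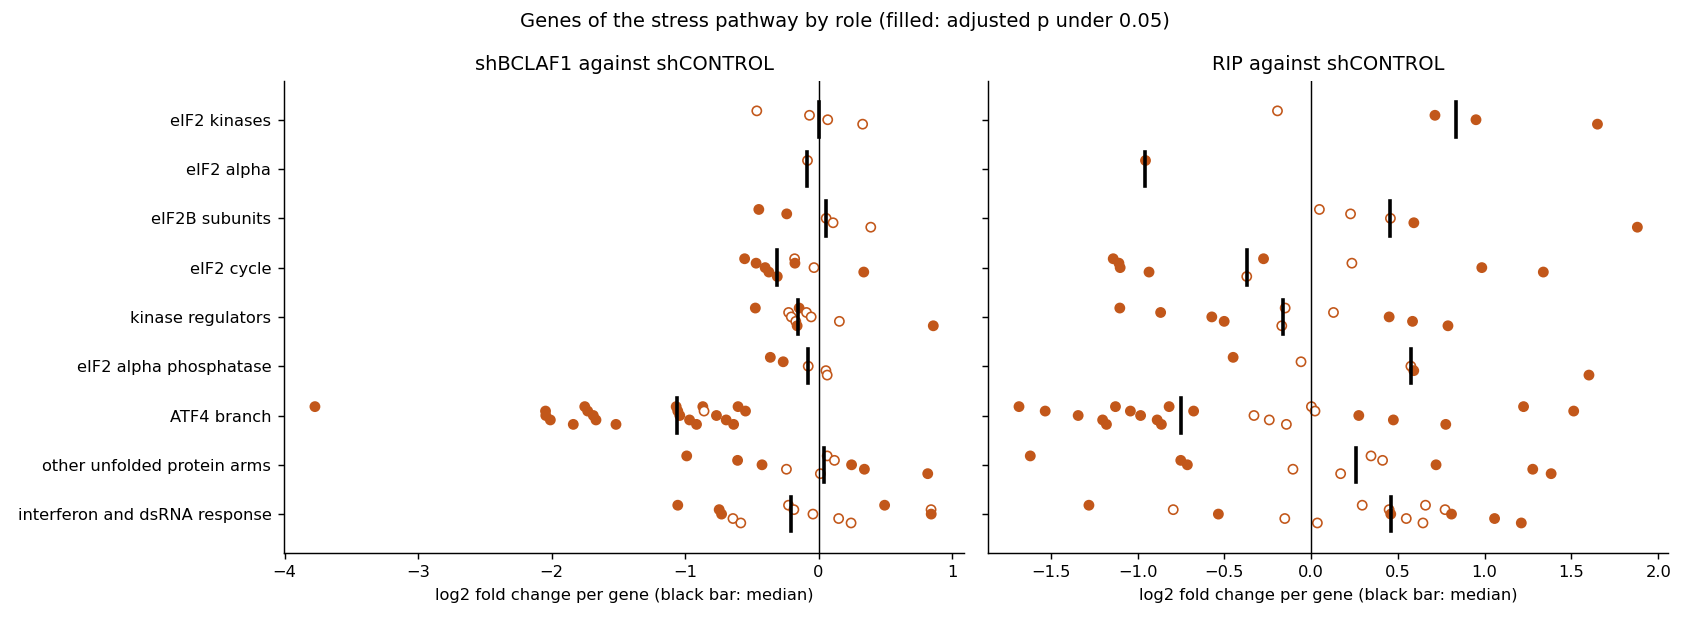
Each point is 1 gene's log2 fold change (horizontal axis) in lists ordered by role, with shBCLAF1 against shCONTROL on the left and RIP against shCONTROL on the right; filled points passed an adjusted p of 0.05 and black bars are medians. RIGI, without counts in shBCLAF1, is not drawn on the left but counts in its list's median; the ATF4 branch has its median at -1.06 there, while the kinases have theirs near 0.

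The other arms of the unfolded protein response, which run beside EIF2AK3, moved in both directions after knock-down: 3 of 10 rose, 3 fell and 4 were not called. Over all genes tested, 15.5% rose and 16.9% fell. SDF2L1, a chaperone cofactor, rose (log2 0.82, edgeR adjusted p = 0.00229) and so did ERN1, the IRE1 sensor (0.34, adjusted p = 0.0240). HERPUD1, of endoplasmic reticulum degradation, fell (-0.99, edgeR adjusted p = 0.000313) and so did XBP1, the target of IRE1 (-0.61, adjusted p = 0.0213). ERN1 lost its call without shCONTROL 1 or 3 or shBCLAF1 1 or 2 (adjusted p 0.0561 to 0.0803), and XBP1 without shCONTROL 2 or 3 or any shBCLAF1 library (0.0513 to 0.0732). The higher count of the list was 1 without shBCLAF1 1 or shBCLAF1 2. In the RIP 3 were higher, led by the chaperone HSP90B1 (1.38) and the disulfide isomerase PDIA4 (1.28), and 3 lower, led by XBP1 (-1.62) and the co-chaperone DNAJB9 (-0.75). Of all genes tested, 24.6% were higher and 24.7% lower there.

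The interferon and double-stranded RNA response, the setting in which EIF2AK2 is known to act, was tested through 14 of its 16 genes after knock-down. Of these 2 rose, 4 fell and 8 were not called, where 15.5% of all genes rose and 16.9% fell. STAT2, which carries the interferon signal, rose (log2 0.84, edgeR adjusted p = 0.000839). IFIT2, an interferon-induced RNA-binding protein, fell (-1.05, edgeR adjusted p = 0.00233). RIGI, a sensor of viral RNA, stood at 5.58, 8.76 and 4.57 CPM in shCONTROL and had no counts in any shBCLAF1 library. Against a floor of 3 counts per library it was at least 78.5-fold lower, a call lost when all 9 libraries shared 1 fit (adjusted p = 0.111). RIGI also had no counts in RIP 2 and RIP 3, beside 278 in RIP 1, although that RNA came from shCONTROL cells. Without shBCLAF1 2 the lower count of the list was 2. In the RIP, of 15 tested, IFIT2 (1.21) and IFIT3 (1.06) led 4 higher genes, and ISG15 (-1.28) led 2 lower ones. Without shCONTROL 1, 2 or 3 or RIP 2 the lower count in the RIP was 1. Of all genes tested with all libraries, 24.6% were higher and 24.7% lower in the RIP.

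**Figure D5:**
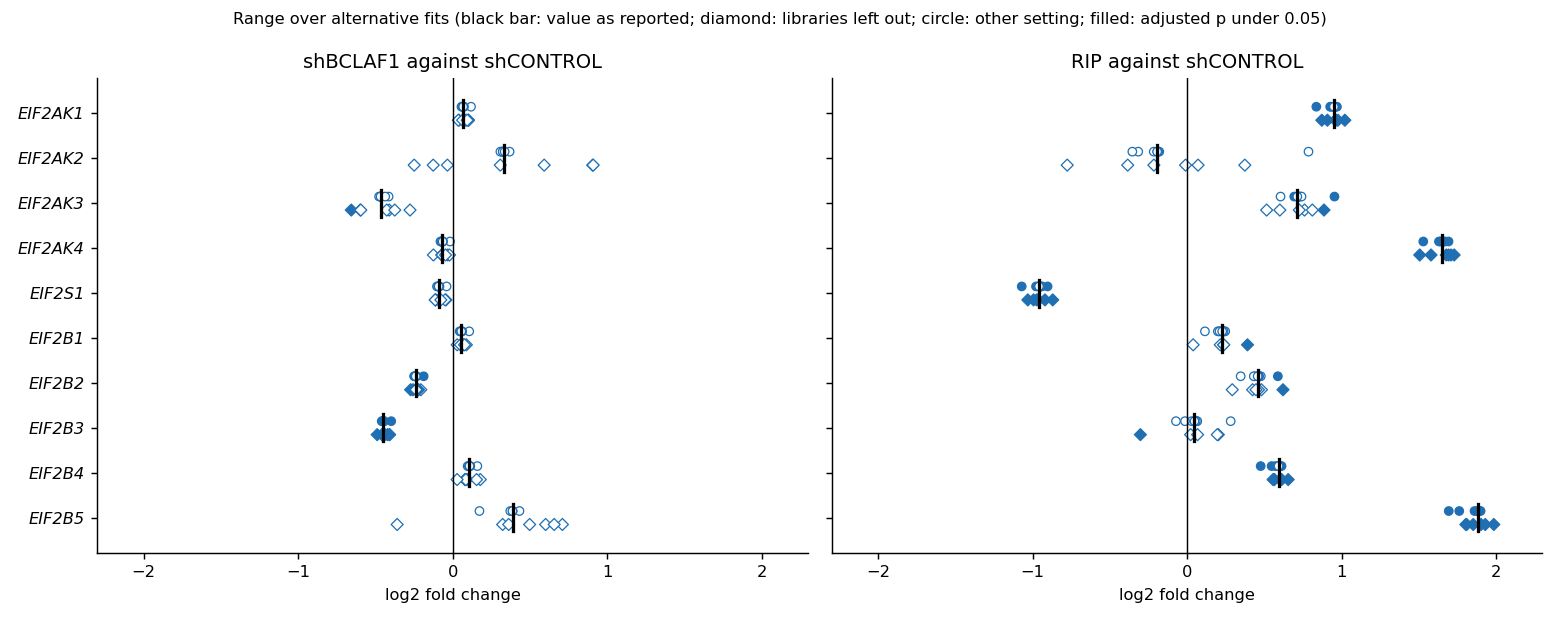
For each of the 10 genes the log2 fold change is plotted over the alternative fits, shBCLAF1 against shCONTROL on the left and RIP against shCONTROL on the right; black bars are the reported values, diamonds leave out libraries, circles are other settings, and filled symbols passed an adjusted p of 0.05. EIF2AK2 spreads from -0.25 to 0.91 on the left, EIF2B5 from -0.36 to 0.71, and the RIP values of EIF2AK4 and EIF2B5 stay filled throughout.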

How the data were processed

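The values are estimated counts of each gene in 9 libraries, which the authors deposited unscaled, as whole numbers, and which were used as they stood. Per the labels' protocols, the stranded libraries came from RNA depleted of ribosomal RNA and were sequenced from both ends. STAR 2.7.11b, StringTie 2.2.3 and build hg38 are named in the submitters' processing notes, with no role given. StringTie-type estimates can assign a gene's reads to an overlapping gene, which bears on genes with overlaps. One entry that names no gene was left out of all fits. It held 2.18% to 3.75% of the counts in 8 libraries and had no value for RIP 1.

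Each contrast was fitted on its own 6 libraries with edgeR 4.0.16 in R 4.3.3: the default filter on low counts, TMM scaling, prior count 2, the quasi-likelihood test on a model of group alone, and Benjamini-Hochberg adjustment over all genes tested at a threshold of 0.05. For the RIP, calls with a log2 difference of 1 or more in size were counted too. The test was checked on simulated data. Standard errors came from the unshrunk coefficient and its F statistic. The floor of 3 counts reflects counting error alone, as copies made by PCR could not be separated. All 9 samples carry 1 batch label. Over the genes that passed the filter, same-numbered libraries of different groups did not deviate together, so the numbers were not taken as pairs. EIF2AK2, ST8SIA5 and ZNF420, low in both RNA-seq libraries numbered 3, were exceptions. Named genes were all members and, of each pathway list, at most the 2 called genes with the largest change in each direction, with BCLAF1 as the check and the 3 nearest profiles of the called member with the lowest knock-down value (no member was called higher); a few listed genes are not reported here. The members and lists were chosen with earlier results of these data known. Alternatives were DESeq2, other scalings and filters, 1 fit of all libraries, the replicate block, libraries left out, another reference and a test against log2 1. Protein sequences were not used here.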

Additional observations from a re-analysis of the deposited data

How the results depend on the processing

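Of the members' values under the alternatives, 257 kept their direction and their side of the threshold, 18 lost the call, 5 gained one and 10 changed sign. After knock-down the count of lower members was 0 in the fit of all 9 libraries, where calls over all genes also fell to 1318 lower and 1129 higher from 2859 and 2625. With the replicate block it was 1, EIF2B2 losing its call (adjusted p = 0.0696), and in the RIP EIF2AK3 lost its call (0.0682); not every library correlated best with its own number, and 2538 genes were then called lower. Over the fits that leave out libraries the count of lower members ran from 1 to 2. In the RIP the test against log2 1 left 2 higher and 0 lower members, and 1142 lower and 732 higher genes in all, since it asks for more. Total counts in place of TMM moved the median of all RIP differences from -0.05 to -0.16 and made 1 member, EIF2S1, depleted at least 2-fold. Leaving out libraries gave 1 to 2 lower and 0 to 1 depleted members. The knock-down value changed sign for EIF2AK2 (-0.25 to 0.91 over fits that leave out libraries) and EIF2B5 (-0.36 to 0.71). The RIP value changed sign for EIF2AK2, at 0.79 with the replicate block and between -0.78 and 0.37 without single libraries, and for EIF2B3, at -0.072 with total counts, -0.014 with the replicate block and between -0.30 and 0.20 without single libraries. With all 9 libraries in 1 fit, the knock-down counts were 3 lower and 0 higher for the eIF2 cycle, 0 lower for the kinase regulators and the phosphatase, and 1 higher for the other unfolded protein arms and the interferon list. With total counts, 1 kinase regulator was lower after knock-down and 3 ATF4 branch genes were higher in the RIP. With both RNA-seq groups as the RIP reference, 10 ATF4 branch genes were higher and 7 lower, and 5 genes of the other unfolded protein arms and 7 interferon genes were higher. The test against log2 1 left 2 lower ATF4 branch genes, 1 lower gene of the other unfolded protein arms and 0 in the remaining lists. Without both libraries numbered 3, 1 kinase regulator was lower and 1 gene of the other unfolded protein arms higher. Beyond these constructions the cause was not tested. Depth sets a floor of 3 counts, far below every member's values outside the near-0 EIF2AK2 libraries.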

Other observations

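EIF2AK3-DT, a non-coding transcript that starts beside EIF2AK3 on the opposite side of its promoter and shares 317 bases with its span, had 0 counts in all 6 RNA-seq libraries and 46, 35 and 86 counts in the RIP. Its RIP mean of 2.00 CPM was at least 23.2-fold higher than the shCONTROL floor of 3 counts per library. EIF2B5-DT, the like transcript at EIF2B5, had 7 counts in shCONTROL 3 and none in any other library. Its shCONTROL mean of 0.0651 CPM lay under that group's floor of 0.0859 CPM, so no difference between groups can be read. EIF2B5 itself stood at 367% of shCONTROL in the RIP. DDX55, which overlaps EIF2B1 over 538 bases, was higher in the RIP (50.4 to 87.3 CPM, log2 0.80, edgeR adjusted p = 0.000638), where EIF2B1 was not called. These genes were chosen for their position next to members, after values had been seen.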
